A study of Homo sapiens with 18 samples.

Results

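The data set measured RNA by sequencing in HaCaT, a spontaneously immortalised keratinocyte line from human skin, and in TIGK, a gingival (gum) keratinocyte line made immortal by telomerase. Cells of both lines were taken unscratched (0 h) or 6 h or 24 h after a scratch through the cell layer, with 3 libraries in each of the 6 groups. Each tissue is represented by 1 line, so tissue, donor and mode of immortalisation cannot be told apart. The groups used here include no unscratched culture at 6 h or 24 h, so the scratch and time in culture cannot be told apart either. The genes described here are 51 interferon-stimulated genes outside the IFIT, OAS and ISG15 systems, of 58735 genes in the count table. They were matched by gene symbol from a list. Of the 51, 50 passed the filter on low counts and were tested among 17409 genes, and CXCL11 did not. RTP4 passed only through its TIGK libraries at 24 h, where it was highest. MX2, IFI44L and CXCL10 passed only through TIGK libraries. Their calls as lower in HaCaT are included in the counts below, but were favoured in advance and are no separate support.

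Interferons of type I and type III act on epithelial cells through separate receptors that both activate JAK kinases and transcription factors of the STAT family. Together with IRF9 these form a complex, ISGF3, which binds the interferon-stimulated response element (ISRE) in the promoters of target genes, while interferon gamma acts through GAS elements. The products of the target genes block viral entry, replication, translation and release, sense foreign nucleic acids, or modify other proteins, and many of them are present at a low level in unstimulated epithelial cells.

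Promoter sequences show what the genes have in common at their starts. RefSeq promoter windows of the build GRCh38.p14, 250 bases before to 50 after the gene start, were matched for 43 of the 51 genes. MX2, GBP2, IFITM2, DHX58, PARP10, TRIM22, LAMP3 and APOL6 were not matched. The core of the ISRE, GAAA and GAAA with any 2 bases between them, searched on both strands, occurred in 28 of the 43 windows (65.1%), against 996 of 27305 promoter windows of the same length (3.65%). The core of the GAS element, TTCNNNGAA, occurred in 13 of the 43 (30.2%), against 2152 of 27305 (7.88%). In BST2, IFITM1, IFI27 and EPSTI1 a GAS core shared bases with an ISRE core, so the ISRE and GAS counts are not separate. Each sequence below runs 5′ to 3′ on the strand of the gene, with the ISRE cores in capitals. The 250 bases before the start are shown for 5 genes, all of which hold an ISRE core. They are BST2 (chr19:17405631-17405880, minus strand), IFI6 (chr1:27672193-27672442, minus strand), IFI44L (chr1:78620198-78620447, plus strand), IFITM1 (chr11:313790-314039, plus strand) and IFITM3 (chr11:320861-321110, minus strand).
BST2: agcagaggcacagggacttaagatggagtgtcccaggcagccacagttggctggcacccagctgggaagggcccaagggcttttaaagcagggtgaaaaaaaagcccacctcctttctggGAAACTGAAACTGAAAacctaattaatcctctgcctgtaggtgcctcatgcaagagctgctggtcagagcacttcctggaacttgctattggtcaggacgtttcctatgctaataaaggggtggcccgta
IFI6: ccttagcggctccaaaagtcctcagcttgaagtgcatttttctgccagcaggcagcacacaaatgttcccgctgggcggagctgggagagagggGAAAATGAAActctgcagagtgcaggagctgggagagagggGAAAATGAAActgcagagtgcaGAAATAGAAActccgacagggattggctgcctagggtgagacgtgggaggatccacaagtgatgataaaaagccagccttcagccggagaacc
IFI44L: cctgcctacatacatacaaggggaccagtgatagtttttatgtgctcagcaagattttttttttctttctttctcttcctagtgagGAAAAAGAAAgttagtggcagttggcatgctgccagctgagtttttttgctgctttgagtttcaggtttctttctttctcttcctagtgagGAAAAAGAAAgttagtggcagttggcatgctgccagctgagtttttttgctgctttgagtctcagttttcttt
IFITM1: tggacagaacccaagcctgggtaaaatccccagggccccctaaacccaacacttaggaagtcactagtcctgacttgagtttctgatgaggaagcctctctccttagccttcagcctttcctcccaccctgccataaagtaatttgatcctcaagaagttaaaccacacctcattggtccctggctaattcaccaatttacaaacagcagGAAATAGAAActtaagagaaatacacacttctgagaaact
IFITM3: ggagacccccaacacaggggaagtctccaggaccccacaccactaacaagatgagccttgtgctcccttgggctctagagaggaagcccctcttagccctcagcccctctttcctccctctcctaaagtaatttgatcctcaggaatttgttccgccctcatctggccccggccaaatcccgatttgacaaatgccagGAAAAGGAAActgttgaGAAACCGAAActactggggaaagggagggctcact
In BST2 the capitals hold 2 overlapping cores that share 4 bases, IFI6 has 3 separate cores, and IFI44L has 2 that lie within a repeated stretch. IFITM1 has 1 core in the part shown and another across the start, and IFITM3 has 2. These matches describe letters and not binding. The core was present in 7 of 10 matched windows of genes that rose in HaCaT at 24 h, in 4 of 7 of those that fell there and in 17 of 25 of those not called there.

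The 51 genes together took about the same share of the reads at all 3 times in HaCaT, and in TIGK a share that was slightly lower at 6 h and well above all others at 24 h. In HaCaT they held 0.186% ± 0.00496 of counted reads at 0 h, 0.183% ± 0.00325 at 6 h and 0.185% ± 0.00207 at 24 h (SD, n = 3 each). In TIGK they held 0.412% ± 0.0299 at 0 h, 0.35% ± 0.0407 at 6 h and 1.19% ± 0.0808 at 24 h. The 9 HaCaT libraries lay between 0.18% and 0.189%, below every TIGK library, and the 3 TIGK libraries at 24 h, at 1.09% to 1.23%, lay above all others. In bulk RNA, fewer cells expressing a gene and less RNA per cell cannot be told apart.

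**Figure D1:**
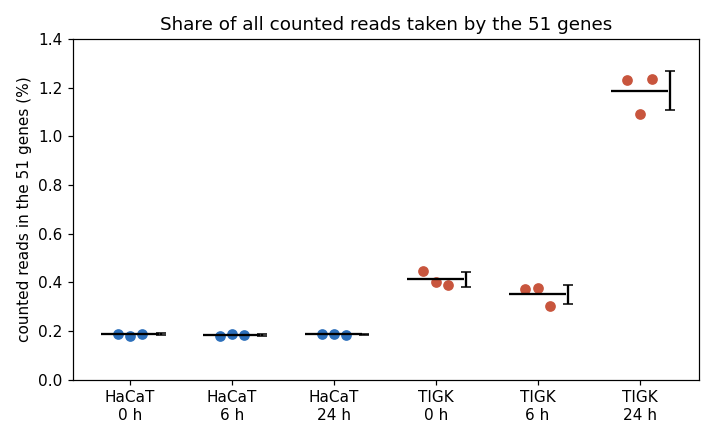
Share of counted reads in the 51 interferon-stimulated genes, in percent, for each of the 18 libraries (points, 3 a group) with the group mean and SD (n = 3). HaCaT stayed near 0.18% to 0.189% at all 3 times, and TIGK stood at 0.412% at 0 h, 0.35% at 6 h and 1.19% at 24 h.

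Libraries held 14238090 to 25011331 counted reads. The TIGK 0 h C and TIGK 6 h C libraries stood apart, with 26246 and 25161 genes that had a count, and with mitochondrial shares of 5.08% and 4.98% against 5.84% to 8.08% in the other 16. They also had the lowest shares of the 51 genes in their groups, 0.39% and 0.303%. Libraries of a group were also compared in pairs by chi-square per degree of freedom over gene counts. Against A and B of its group, TIGK 0 h C gave 14.1 and 15.6 and TIGK 6 h C gave 16.1 and 15.1. TIGK 24 h C was as far from its group, at 16.2 and 12.3, against 6.59 between TIGK 24 h A and B. The 7 keratinocyte markers summed to 37969.6 to 41814.5 CPM in HaCaT and 36718 to 46151 CPM in TIGK. The 7 immune markers summed to 0.811 to 1.73 CPM in HaCaT and 3.27 to 6.4 in TIGK, and CD14 made up most of these sums, at 0.824 CPM in HaCaT and 4.35 CPM in TIGK on average. CD14 was lower in HaCaT at 0 h (adjusted p = 4e-06), at 6 h (adjusted p = 5.2e-07) and at 24 h (adjusted p = 9e-06), and its change in TIGK at 24 h was not called (adjusted p = 0.092). LYZ and TYROBP had 0 counts in both lines, and PTPRC was under 1 CPM in both. The endothelial marker KDR had 0 counts in HaCaT, and in TIGK it averaged 1.12 CPM at 0 h, 1.05 at 6 h and 4.53 at 24 h, where it was higher than at 0 h (adjusted p = 0.0015). VWF went the other way, at 4.49 CPM in HaCaT on average and under 1 CPM in TIGK. It was called higher in HaCaT at 0 h, 6 h and 24 h (log2 fold changes 2.75, 2.08 and 2.87). VWF also rose in HaCaT at 24 h (log2 fold change 1.34), and its change in TIGK was not called. PECAM1 and CDH5 were under 1 CPM in both lines. Fibroblast markers moved with the line and the time: the sum of the 6 lay between 20.9 and 40.4 CPM in HaCaT. In TIGK its lowest and highest values were 235 and 273 CPM before the scratch, 239 and 287 after 6 h, 387 and 433 after 24 h. COL1A1 averaged 28.8 CPM in HaCaT and 167 CPM in TIGK. DCN stood at 0.461 CPM in HaCaT and 100.4 CPM in TIGK at 0 h, and at 0.612 CPM in HaCaT and 230.4 CPM in TIGK at 24 h. LUM had 1 count in HaCaT and 132 in TIGK over the 3 libraries at 0 h, and 2 in HaCaT and 213 in TIGK at 24 h. These 3 markers were lower in HaCaT at each time and rose in TIGK at 24 h, COL1A1 by 1.19-fold (adjusted p = 0.016), DCN by 2.3-fold (adjusted p = 1.2e-07) and LUM by 2.06-fold (adjusted p = 0.034), while COL1A2, PDGFRA and THY1 were under 1 CPM in both lines. The part of these markers in the results was not tested.

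Before the scratch, most of the interferon-stimulated genes were lower in HaCaT. Of the 50 tested, 42 were lower in HaCaT than in TIGK (33.3% of all genes tested were), 4 were higher (29.3% of all genes) and 4 were not called. The median log2 fold change, HaCaT over TIGK, was -1.58 over the 50 genes, or -1.52 with the genes that have no count in HaCaT at their bounds, and -0.04 over all genes. A gene was called at a Benjamini-Hochberg adjusted p under 0.05 over all genes, by edgeR's two-sided quasi-likelihood test, which gives every adjusted p below. The 4 higher genes were IFITM1, IFITM2, IFI16 and TRIM14, and the 4 not called were IFITM3, SAMD9, TRIM5 and GBP2.

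At 6 h, 36 of the 50 were lower in HaCaT (32.8% of all genes) and 6 higher (29.8% of all genes), with a median of -1.22 against -0.02 over all genes. The 6 were the 4 of 0 h with GBP2 and RTP4. At 24 h, 48 of the 50 were lower in HaCaT (33.1% of all genes) and 2, IFITM2 and GBP2, were higher (28.6% of all genes). In all 48, each HaCaT library was below each TIGK library, an arrangement that 34% of all genes showed at 24 h. The median log2 fold change at 24 h was -3.19, against -0.05 over all genes. In all, 36 genes were lower in HaCaT at all 3 times (24.3% of all genes). Among the 36, the 6 h calls of GBP3, RSAD2, CMPK2 and DTX3L were lost in fits with 1 library left out. There the adjusted p was 0.09 to 0.18 for GBP3, 0.065 to 0.11 for RSAD2 and 0.1 for CMPK2. Further, 3 genes, IFITM1, IFI16 and TRIM14, were higher in HaCaT at 0 h and lower at 24 h (0.494% of all genes). Since 48 of the 50 were lower in HaCaT at 24 h, this does not set the 3 apart.

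**Figure D2:**
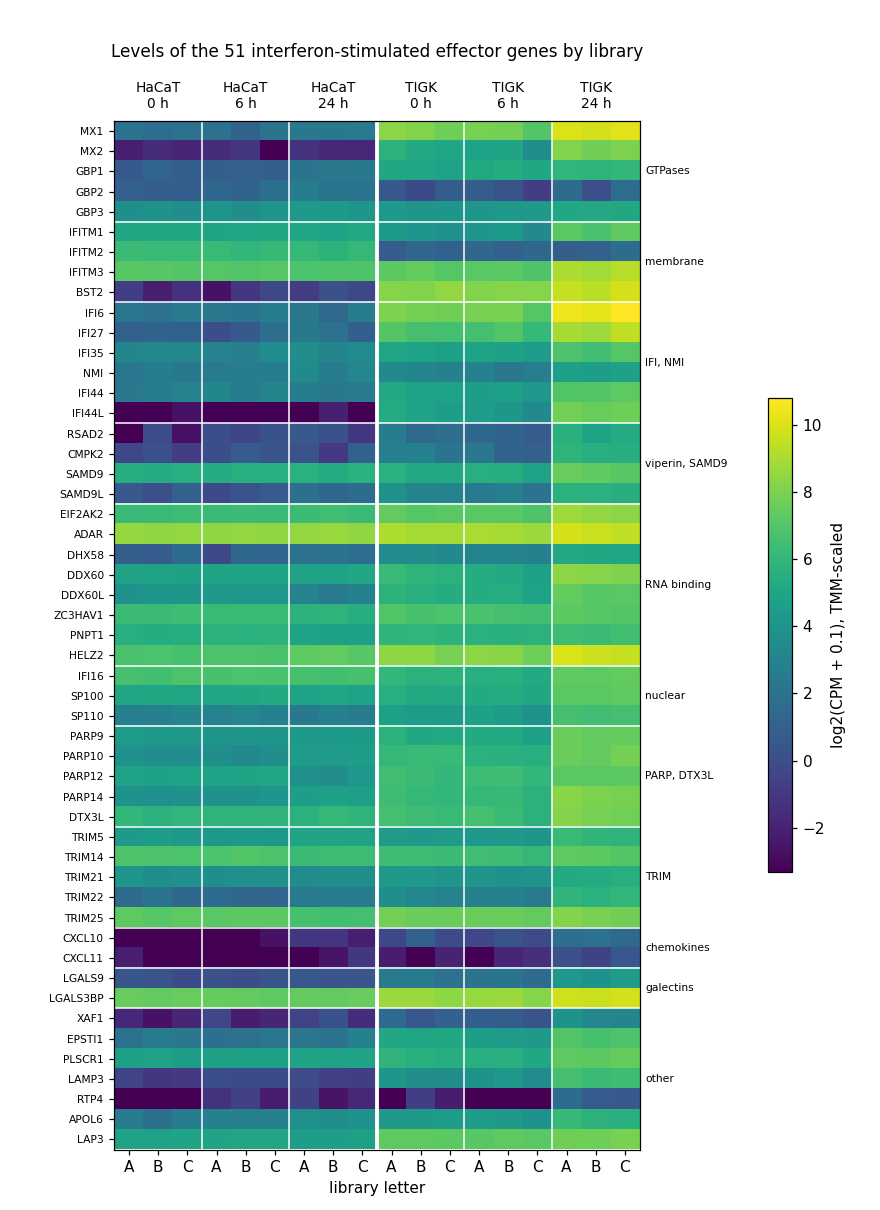
Level of each of the 51 genes (rows, by role) in each of the 18 libraries (columns, by group), as log2(CPM + 0.1) in colour. Most rows are darker in HaCaT than in TIGK at every time and brightest in TIGK at 24 h, and IFITM2 has the opposite order.

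Within HaCaT, no gene of the 50 was called at 6 h against 0 h, in either direction (0.138% of all genes were higher and 0.0632% lower). At an unadjusted p under 0.05, 3 of the 50 were higher and 0 lower, against 630 and 685 of the 17409 genes tested. DESeq2 and limma also called 0 of the 50. At 24 h, 15 of the 50 were higher than at 0 h (15.5% of all genes) and 7 were lower (15.9% of all genes), with a median log2 fold change of 0.20 against 0 over all genes. The 7 that fell are close to the share among all genes, and the 15 that rose are above it. The 15 were CXCL10, RTP4, XAF1, GBP1, GBP2, GBP3, APOL6, SAMD9L, TRIM22, TRIM5, PARP14, PARP10, DHX58, NMI and HELZ2, and the 7 were DDX60L, PARP12, PNPT1, TRIM25, ZC3HAV1, TRIM14 and LAP3.

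Within TIGK, few of the genes were called at 6 h and nearly all were at 24 h. At 6 h, 0 of the 50 were higher than at 0 h (2.5% of all genes) and 7 were lower (1.12% of all genes), with a median log2 fold change of -0.19 against -0.02 over all genes. At an unadjusted p under 0.05, 1 of the 50 was higher and 18 were lower, against 1328 and 1171 of the 17409 genes tested. DESeq2 and limma called 0 of the 50 higher. The 7 lower genes were MX2, IFI44L, SAMD9L, DDX60, IFI16, PARP10 and EPSTI1. All 7 were higher at 24 h than at 0 h, and 0.304% of all genes were lower at 6 h and higher at 24 h. Since nearly all of the 50 were higher at 24 h, this does not set the 7 apart. At 24 h, 48 of the 50 were higher than at 0 h (15.3% of all genes) and 0 were lower (17% of all genes). At an unadjusted p under 0.05, 0 of the 50 were lower, against 3749 of the 17409 genes tested. DESeq2 and limma also called 0 of the 50 lower. In 47 genes each TIGK library at 24 h was above each at 0 h, which held for 19.4% of all genes. The median log2 fold change was 1.68, against -0.01 over all genes, and the range was 0.14 for IFITM2 to 3.31 for RSAD2.

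The count of 7 at 6 h rested on single libraries: it was 3 without TIGK 0 h A, 3 without TIGK 6 h C and 5 without both TIGK 0 h C and TIGK 6 h C. Among the single genes, the fall of MX2 was not called when 1 library was left out, HaCaT 0 h A or C, HaCaT 6 h A, HaCaT 24 h A or C, TIGK 0 h A or B or TIGK 6 h C (adjusted p = 0.052 to 0.28), that of IFI44L when 1 library was left out, TIGK 0 h A or TIGK 6 h B or C (adjusted p = 0.052 to 0.14), that of SAMD9L when 1 library was left out, TIGK 0 h A or TIGK 6 h A or C (adjusted p = 0.081 to 0.21), and that of IFI16 when 1 library was left out, TIGK 0 h A or TIGK 6 h A or C (adjusted p = 0.074 to 0.17). That of EPSTI1 was not called without TIGK 0 h C and TIGK 6 h C together (adjusted p = 0.066).

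**Figure D3:**
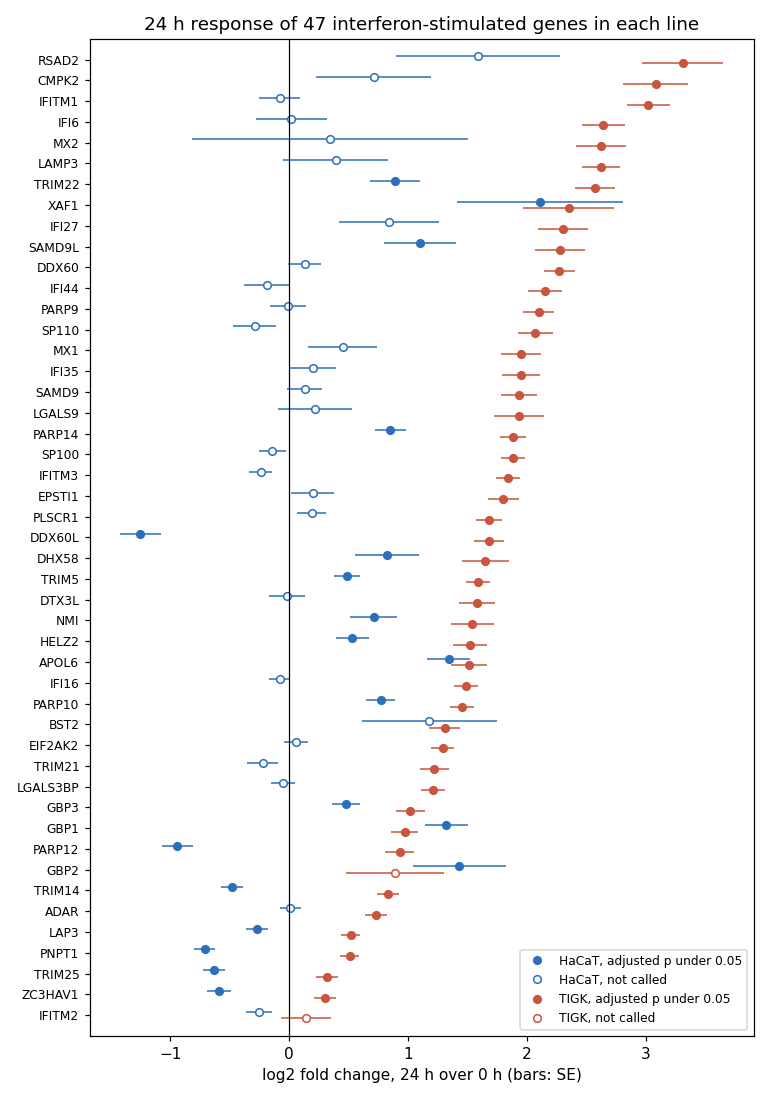
Log2 fold change at 24 h over 0 h (x axis, bars give the SE) for 47 genes (rows, by their change in TIGK), in HaCaT (upper point of a row) and in TIGK (lower point), with filled points for those called. IFI44L, CXCL10 and RTP4 are left out because a group had 3 or fewer counts. In TIGK all points lie right of 0, up to 3.31 for RSAD2, and in HaCaT they lie on both sides.

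The change at 24 h, called the response below, differed between the lines for most of the genes. It holds the scratch and the time in culture together. The difference was tested as the HaCaT log2 change, 24 h over 0 h, minus that of TIGK. A negative value is a lower log2 change in HaCaT, be it a smaller rise, no change or a fall. The difference was negative and called for 38 of the 50 genes (6.45% of all genes) and positive and called for 0 (7.07% of all genes), with a median of -1.46 against -0.01. By DESeq2 and limma 0 were positive and called as well. At an unadjusted p under 0.05, 1 of the 50 was positive, against 2262 of the 17409 genes tested. Of the genes, 14 rose at 24 h in both lines (6.83% of all genes) and 7 fell in HaCaT while rising in TIGK (0.58% of all genes). Since 48 of the 50 rose in TIGK, these shares do not set the 14 or the 7 apart. The 7 are all the genes that fell in HaCaT, close to the share among all genes (15.9%). At 6 h the difference was called for 1 gene, DDX60, in the positive direction (0.218% of all genes) and for 0 in the negative one (0.534% of all genes). At an unadjusted p under 0.05, 11 of the 50 were positive at 6 h and 0 negative, against 831 and 983 of the 17409 genes tested. DESeq2 and limma called 0 of the 50 negative.

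**Figure D4:**
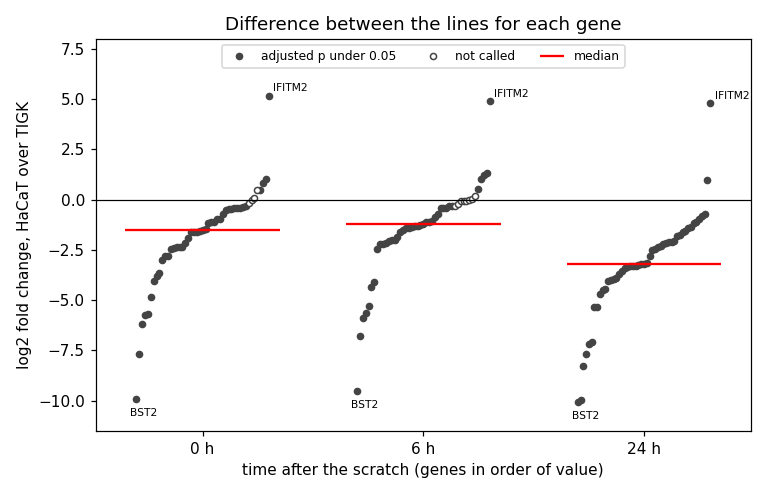
Log2 fold change of HaCaT over TIGK (y axis) for each gene at 0 h, 6 h and 24 h (x axis, genes in order of value), with filled points for those called and a red line at the median. Genes with 3 or fewer counts in a group are left out, so that 47, 47 and 49 genes are drawn. Their median lies at -1.50, -1.21 and -3.18, and IFITM2 stays between 4.79 and 5.18.

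Among the antiviral GTPases, MX1, which acts on viral nucleocapsids, and MX2, which hinders the entry of viral genomes into the nucleus, showed wide gaps between the lines, as did GBP1, a guanylate-binding protein. MX1 (chr 21, 41420304 to 41459214, hg38) had 4.04, 3.28 and 3.81 CPM at 0 h, 3.94, 2.26 and 4.2 at 6 h and 4.83, 5.11 and 5.22 at 24 h in HaCaT. MX1 in TIGK had 322, 278 and 202 CPM at 0 h, 241, 233 and 129.6 at 6 h and 1074, 923 and 1102 at 24 h. The lines did not overlap at any time. MX1 was 204-fold lower in HaCaT at 24 h (adjusted p = 1.2e-18). The lowest TIGK library at 0 h and at 6 h was letter C. Its rise at 24 h was 3.87-fold in TIGK (adjusted p = 3.9e-09). Its change in HaCaT was not called (0.45 ± 0.29 log2 units, SE; adjusted p = 0.27), although each HaCaT library at 24 h was above each at 0 h. The difference of the 2 responses was -1.50 ± 0.34 log2 units (SE; adjusted p = 0.0036).

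MX2 (chr 21, 41361943 to 41409390) had 0.128, 0.248 and 0.187 CPM at 0 h, 0.254, 0.367 and 0 at 6 h and 0.318, 0.205 and 0.196 at 24 h in HaCaT, with 0 counts in 1 library. TIGK MX2 levels were 54.6, 36.2 and 31.5 CPM at 0 h, 28.7, 29.8 and 12.8 at 6 h and 276, 209 and 260.1 at 24 h. No library of HaCaT reached the range of TIGK. MX2 passed the filter on low counts only through TIGK, which favoured this direction in advance. MX2 rose 6.13-fold in TIGK at 24 h (adjusted p = 1.1e-09), while its difference in response, -2.27 ± 1.30 log2 units (SE), was not called (adjusted p = 0.28). GBP1 (chr 1, 89052319 to 89065360) had 1.47, 2.29 and 1.81 CPM at 0 h, 1.84, 1.89 and 1.83 at 6 h and 4.13, 4.77 and 5.09 at 24 h in HaCaT. In TIGK, GBP1 had 33.6, 32.3 and 27.7 CPM at 0 h, 38.3, 42.1 and 34.2 at 6 h and 61.4, 56.8 and 64.9 at 24 h. The HaCaT libraries at 24 h were all above those at 0 h, as were those of TIGK. The rises were 2.5-fold in HaCaT (adjusted p = 3.2e-06) and 1.96-fold in TIGK (adjusted p = 3.6e-07). The difference between these rises was 0.35 ± 0.21 log2 units (SE; adjusted p = 0.32).

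GBP2, another guanylate-binding protein, was low in both lines and went the other way from most. It had 1.92, 1.8 and 1.75 CPM at 0 h, 2.6, 2.14 and 3.59 at 6 h and 6.16, 4.3 and 4.24 at 24 h in HaCaT. GBP2 in TIGK had 1.41, 0.808 and 1.66 CPM at 0 h, 1.66, 1.19 and 0.491 at 6 h and 3.01, 0.98 and 3.35 at 24 h. At 24 h it was 2.0-fold higher in HaCaT (adjusted p = 0.027), with 1 TIGK library well under the other 2. This was not called when 1 library was left out, HaCaT 24 h A or TIGK 24 h B (adjusted p = 0.12 to 0.16). The same comparison at 6 h was not called without TIGK 6 h C (adjusted p = 0.058). Its rise in HaCaT at 24 h was 2.69-fold (adjusted p = 0.0068). GBP3 rose 1.39-fold in HaCaT and 2.03-fold in TIGK, and stood at 18.5 ± 0.903 CPM in HaCaT and 35.4 ± 0.571 CPM in TIGK at 24 h. Its difference in response (-0.54 ± 0.17 log2 units, SE; adjusted p = 0.033) was not called when 1 library was left out, HaCaT 0 h A or B, HaCaT 24 h B or C, TIGK 0 h B or C or TIGK 24 h B (adjusted p = 0.056 to 0.095), nor without TIGK 0 h C and TIGK 6 h C (adjusted p = 0.071) or with no filter on low counts (adjusted p = 0.13). Reads of these related GBP genes may be split among them by the counting, and their values are uncertain to that extent.

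The membrane proteins that restrict viral entry and release gave varied patterns. BST2, or tetherin, which holds budding virus at the cell surface, had 0.513, 0.124 and 0.312 CPM at 0 h, 0.0635, 0.367 and 0.731 at 6 h and 0.445, 1.02 and 0.718 at 24 h in HaCaT (chr 19, 17402939 to 17405648). TIGK BST2 levels were 299, 282 and 358 CPM at 0 h, 277, 293 and 299.6 at 6 h and 741, 653 and 933 at 24 h. The lines were far apart at all 3 times, and BST2 was 1063-fold lower in HaCaT at 24 h (adjusted p = 6.4e-21). BST2 rose 2.48-fold in TIGK at 24 h (adjusted p = 2.5e-08). The difference in response was -0.13 ± 0.73 log2 units (SE; adjusted p = 0.95). HaCaT held 7, 15 and 11 counts at 24 h and 8, 2 and 5 at 0 h.

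IFITM1, IFITM2 and IFITM3, membrane proteins that hinder the fusion of viruses with the cell, lie next to each other on chromosome 11, and each followed another course. IFITM3 (chr 11, 319669 to 327537) had 137, 141 and 128 CPM at 0 h, 133, 123 and 140.2 at 6 h and 111, 114 and 119 at 24 h in HaCaT. In TIGK, IFITM3 had 148, 166 and 136 CPM at 0 h, 147, 144 and 118 at 6 h and 533, 459 and 612 at 24 h. The lines overlapped at 0 h and 6 h and separated at 24 h, when IFITM3 was 4.66-fold lower in HaCaT (adjusted p = 1.9e-15). It rose 3.57-fold in TIGK at 24 h (adjusted p = 2.3e-12), and its HaCaT change was -0.24 ± 0.10 log2 units (SE; adjusted p = 0.071).

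IFITM1 (chr 11, 313506 to 315272) had 35.7, 34.5 and 34.7 CPM at 0 h, 30.2, 31.6 and 35.1 at 6 h and 32.5, 29.3 and 37.1 at 24 h in HaCaT. IFITM1 in TIGK had 20.3, 17.1 and 13.9 CPM at 0 h, 16.9, 20.2 and 10.3 at 6 h and 144, 108 and 161 at 24 h. HaCaT was above TIGK in all libraries at 0 h and 6 h and below in all at 24 h. It was 2.06-fold higher in HaCaT at 0 h (adjusted p = 1.3e-05) and 4.17-fold lower at 24 h (adjusted p = 1.1e-10). Its difference in response, -3.10 ± 0.24 log2 units (SE; adjusted p = 3.4e-09), was the most negative of the 50.

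IFITM2 (chr 11, 307631 to 315272) had 78.7, 74.4 and 72.4 CPM at 0 h, 72.9, 63 and 69.7 at 6 h and 66.5, 55.4 and 68.1 at 24 h in HaCaT. TIGK IFITM2 levels were 1.6, 2.6 and 2.0 CPM at 0 h, 2.46, 1.88 and 2.51 at 6 h and 1.83, 1.96 and 3.08 at 24 h. It was higher in HaCaT at each time, 36.2-fold at 0 h (adjusted p = 7.6e-19) and 27.7-fold at 24 h (adjusted p = 4.3e-18), and with GBP2 it was 1 of the 2 genes not called at 24 h in TIGK (0.14 ± 0.21 log2 units, SE; adjusted p = 0.66). The 3 genes are close paralogs, and in the files' annotation the span of IFITM1 lies within that of IFITM2 on the same strand, with 1767 shared bases. Reads may therefore have been split among them, and their values are uncertain to that extent.

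**Figure D5:**
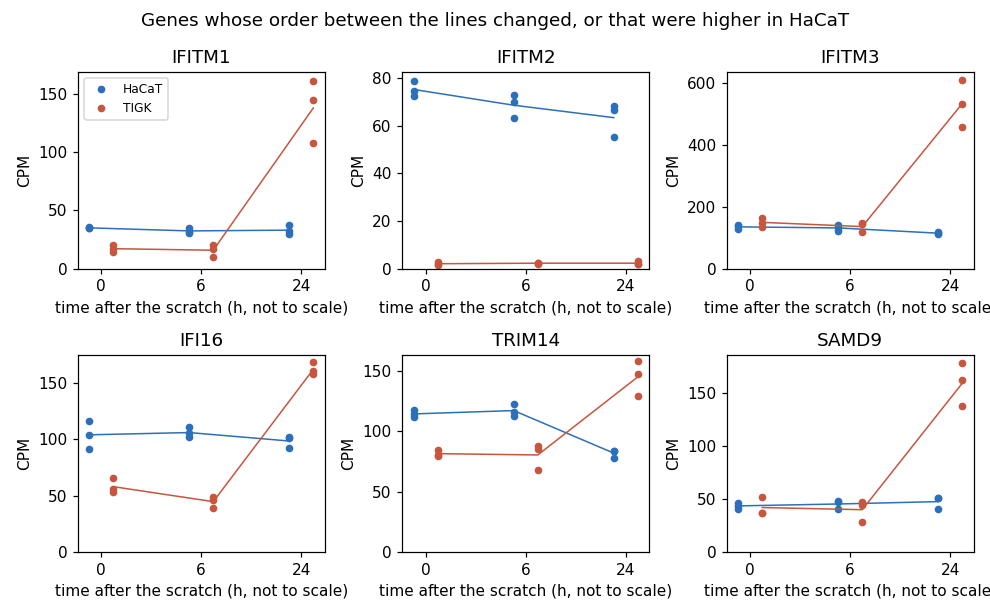
CPM of each library (points) at 0 h, 6 h and 24 h for 6 genes, with lines through the group means. IFITM1, IFI16 and TRIM14 lie higher in HaCaT at 0 h and lower at 24 h, IFITM3 and SAMD9 overlap until 6 h and are lower in HaCaT at 24 h, and IFITM2 lies higher in HaCaT throughout.

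Per length, the order of the genes differed between the lines. In deposited FPKM, IFITM3 had the highest mean level of the 51 in HaCaT, at 98.7 ± 4.44 at 0 h, 95.8 ± 5.79 at 6 h and 84.9 ± 2.98 at 24 h (SD, n = 3 each). In TIGK, BST2 was highest at 0 h, with 275 ± 35.2 FPKM, and at 6 h, with 257 ± 10.2, next to IFI6 with 267 ± 30.1 and 235 ± 72.6, a gap within the spread at both times. At 24 h IFI6 was highest in TIGK, at 1669 ± 309.5 FPKM, ahead of BST2 at 685 ± 125 FPKM.

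The IFI genes, a name that covers unrelated proteins first found as interferon-inducible, were all higher in TIGK at 24 h than at 0 h (15.3% of all genes). IFI6, a small mitochondrial and endoplasmic reticulum protein with antiviral activity (chr 1, 27666061 to 27672218), had 4.49, 3.9 and 5.37 CPM at 0 h, 4.83, 4.34 and 6.27 at 6 h and 4.83, 2.86 and 6.2 at 24 h in HaCaT. In TIGK, IFI6 had 263, 230.1 and 211 CPM at 0 h, 238, 244 and 132 at 6 h and 1373, 1242 and 1767 at 24 h. The HaCaT libraries overlapped between times, and all TIGK libraries at 24 h were above those of 0 h and 6 h. IFI6 was 314-fold lower in HaCaT at 24 h (adjusted p = 8.7e-19) and rose 6.22-fold in TIGK (adjusted p = 6.9e-11). Its difference in response was -2.62 ± 0.35 log2 units (SE; adjusted p = 8.7e-06).

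IFI44, a cytoplasmic protein with antiproliferative activity (chr 1, 78649796 to 78664078), had 4.68, 6.19 and 7.49 CPM at 0 h, 8.7, 6.29 and 8.58 at 6 h and 5.91, 4.84 and 5.28 at 24 h in HaCaT. IFI44 in TIGK had 36, 28.6 and 28.7 CPM at 0 h, 24.1, 24.8 and 18.1 at 6 h and 125, 131 and 156 at 24 h. It rose 4.42-fold in TIGK at 24 h (adjusted p = 3.2e-11), and the HaCaT libraries overlapped between 0 h and 24 h. Its paralog IFI44L had 1 count in all 3 HaCaT libraries together at 0 h, 0 at 6 h and 2 at 24 h, while TIGK had 40.4, 27.5 and 23.2 CPM at 0 h, 22.4, 17.7 and 10.5 at 6 h and 219.9, 183 and 207 at 24 h. IFI44L passed the filter on low counts only through TIGK, so a lower level in HaCaT was favoured in advance. NMI, an adaptor that binds STAT proteins and IFI35, rose in both lines. It had 4.61, 6.01 and 5.18 CPM at 0 h, 5.65, 5.87 and 6.03 at 6 h and 10.8, 5.93 and 9.0 at 24 h in HaCaT. TIGK NMI levels were 10.1, 8.88 and 7.38 CPM at 0 h, 7.25, 4.7 and 6.33 at 6 h and 25.9, 23.8 and 26.5 at 24 h. The rise was 1.63-fold in HaCaT (adjusted p = 0.0084), where 1 library at 24 h lay within the range of 0 h, and 2.9-fold in TIGK (adjusted p = 5.6e-07). The HaCaT rise was not called without HaCaT 24 h A (adjusted p = 0.085), and the difference in response (-0.83 ± 0.27 log2 units, SE; adjusted p = 0.043) was lost when 1 library was left out, HaCaT 0 h B or C, HaCaT 6 h C, HaCaT 24 h B or C, TIGK 0 h B or C or TIGK 24 h A, B or C (adjusted p = 0.051 to 0.12).

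IFI27 and IFI35 were lower in HaCaT at each time and rose in TIGK at 24 h, 4.94-fold and 3.86-fold. At 24 h IFI27 stood at 3.66 ± 1.71 CPM in HaCaT and 537 ± 134 CPM in TIGK, and IFI35 at 10.8 ± 1.87 CPM in HaCaT and 112 ± 23.6 CPM in TIGK (SD, n = 3). The difference in response of IFI27 (-1.47 ± 0.48 log2 units, SE; adjusted p = 0.043) was not called when 1 library was left out, HaCaT 0 h A, B or C, HaCaT 24 h B or C, TIGK 0 h B or C or TIGK 24 h C (adjusted p = 0.062 to 0.12).

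RSAD2, or viperin, which makes a chain-terminating nucleotide, and CMPK2, a mitochondrial nucleotide kinase encoded beside it, were low before the scratch in both lines. RSAD2 (chr 2, 6865806 to 6898239) had 0, 0.867 and 0.0624 CPM at 0 h, 0.953, 0.672 and 1.1 at 6 h and 1.46, 1.02 and 0.391 at 24 h in HaCaT. In TIGK, RSAD2 had 6.08, 2.83 and 3.25 CPM at 0 h, 2.6, 2.13 and 1.64 at 6 h and 49.2, 28.7 and 41.1 at 24 h. Its rise in TIGK at 24 h was 9.89-fold (adjusted p = 5.3e-08), the largest fitted fold of the 50. The HaCaT values at 24 h overlapped those at 0 h, and the change there was 1.59 ± 0.69 log2 units (SE; adjusted p = 0.083). CMPK2 rose 8.45-fold in TIGK, to 49.5 ± 7.65 CPM at 24 h against 5.93 ± 1.51 CPM at 0 h, and stood at 1.19 ± 0.808 CPM in HaCaT at 24 h and 0.731 ± 0.247 at 0 h. Its difference in response (-2.37 ± 0.58 log2 units, SE; adjusted p = 0.0065) was not called without HaCaT 0 h B (adjusted p = 0.056), and it was -2.98 without HaCaT 24 h C. The annotated spans of RSAD2 and CMPK2 overlap by 830 bases on opposite strands, and it is not stated whether the counting used strand.

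SAMD9 and SAMD9L are neighbouring genes for proteins that inhibit translation and poxvirus growth. SAMD9 (chr 7, 93099513 to 93118023) had 43.7, 40.4 and 46.5 CPM at 0 h, 40.9, 48.3 and 46.8 at 6 h and 51.3, 40.7 and 50.7 at 24 h in HaCaT. SAMD9 in TIGK had 52.3, 36.8 and 36.8 CPM at 0 h, 47.1, 44.4 and 28.3 at 6 h and 179, 163 and 138 at 24 h. The lines overlapped at 0 h and 6 h, and at 24 h SAMD9 was 3.35-fold lower in HaCaT (adjusted p = 3.9e-10) after a rise of 3.81-fold in TIGK (adjusted p = 7.5e-10). SAMD9L (chr 7, 93130055 to 93148369) had 1.41, 0.991 and 1.93 CPM at 0 h, 0.762, 1.16 and 1.58 at 6 h and 3.56, 2.66 and 3.07 at 24 h in HaCaT. TIGK SAMD9L levels were 14, 8.42 and 7.75 CPM at 0 h, 5.46, 6.77 and 4.09 at 6 h and 50.8, 50.8 and 43.4 at 24 h. It rose in both lines at 24 h, 2.14-fold in HaCaT (adjusted p = 0.0068) and 4.85-fold in TIGK (adjusted p = 7.7e-09). Each 24 h library was above those of 0 h. The difference in response of SAMD9L (-1.18 ± 0.37 log2 units, SE; adjusted p = 0.036) was not called when 1 library was left out, HaCaT 0 h A or C, HaCaT 24 h B or C, TIGK 0 h B or C or TIGK 24 h A or B (adjusted p = 0.059 to 0.18).

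Of the 8 RNA-binding proteins and helicases, all 8 were lower in HaCaT at 0 h (33.3% of all genes) and at 24 h (33.1%), and all 8 rose in TIGK at 24 h (15.3%). In HaCaT at 24 h, 2 rose (15.5% of all genes) and 3 fell (15.9%). DDX60L (chr 4, 168356735 to 168537786), an antiviral helicase, had 13.8, 17.2 and 17.9 CPM at 0 h, 19.8, 18.5 and 18.1 at 6 h and 7.56, 5.66 and 7.31 at 24 h in HaCaT. In TIGK, DDX60L had 55.7, 45.3 and 43.1 CPM at 0 h, 42, 44.5 and 29.5 at 6 h and 174, 141 and 146 at 24 h. In HaCaT the 24 h libraries were all below those of 0 h, 2.38-fold lower (adjusted p = 2.1e-06), and in TIGK all were above, 3.21-fold higher (adjusted p = 7.2e-10). The difference in response was -2.93 ± 0.21 log2 units (SE; adjusted p = 1.1e-09).

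Its paralog and neighbour DDX60 (chr 4, 168216293 to 168318807) had 27.5, 28.2 and 27 CPM at 0 h, 29.7, 29 and 30.6 at 6 h and 27.6, 28.4 and 34.4 at 24 h in HaCaT. DDX60 in TIGK had 73.1, 58.8 and 53.1 CPM at 0 h, 42.9, 39.8 and 27 at 6 h and 318, 302 and 271 at 24 h. In TIGK the 3 libraries at 6 h were all below and those at 24 h all above the 3 at 0 h, 1.69-fold lower (adjusted p = 0.00062) and 4.83-fold higher (adjusted p = 3.6e-12). Its difference in the 6 h response was 0.87 ± 0.19 log2 units (SE; adjusted p = 0.024) and was not called when 1 library was left out, HaCaT 0 h A or C, HaCaT 6 h A or C or TIGK 0 h A (adjusted p = 0.063 to 0.07). Reads may be split between the paralogs by the counting, so the values of both are uncertain to that extent.

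PNPT1, a mitochondrial RNA-degrading enzyme (chr 2, 55634265 to 55693910), had 45.6, 43.2 and 44.4 CPM at 0 h, 52.9, 50.7 and 55.9 at 6 h and 28.8, 25.9 and 26.6 at 24 h in HaCaT. TIGK PNPT1 levels were 61, 61.4 and 54.7 CPM at 0 h, 51.8, 50.2 and 53.3 at 6 h and 84.2, 78 and 90.3 at 24 h. It fell 1.64-fold in HaCaT at 24 h (adjusted p = 5e-07) and rose 1.43-fold in TIGK (adjusted p = 2.3e-05), without overlap of 0 h and 24 h in either line. ZC3HAV1, the zinc-finger antiviral protein that binds CpG-rich RNA, fell 1.5-fold in HaCaT (adjusted p = 4.3e-05) to 53.3 ± 7.54 CPM at 24 h, against 80.2 ± 2.7 CPM at 0 h. In TIGK it rose 1.23-fold (adjusted p = 0.015) to 139 ± 11.8 CPM, against 113 ± 11.4 CPM at 0 h, which was not called when 1 library was left out, TIGK 0 h B or TIGK 24 h A (adjusted p = 0.082 to 0.088).

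EIF2AK2 (PKR, a kinase that halts translation on double-stranded RNA) and ADAR (which edits double-stranded RNA) rose in TIGK at 24 h, 2.44-fold (adjusted p = 3.7e-10) and 1.66-fold (adjusted p = 1.6e-06). In HaCaT, EIF2AK2 stood at 81.1 ± 5.24 CPM at 24 h and 77.5 ± 4.67 CPM at 0 h, and ADAR at 367 ± 24.1 CPM at 24 h and 363 ± 16.5 CPM at 0 h, and neither was called. DHX58 (LGP2, a regulator of RNA sensing) rose 1.77-fold in HaCaT (adjusted p = 0.02) and 3.14-fold in TIGK (adjusted p = 7.3e-07), and the HaCaT call was lost when 1 library was left out, HaCaT 0 h A or B or HaCaT 24 h A or B (adjusted p = 0.057 to 0.11). HELZ2, a nuclear helicase and co-activator, rose 1.45-fold in HaCaT (adjusted p = 0.0057) and 2.87-fold in TIGK (adjusted p = 1.2e-08), and stood at 156 ± 13.7 CPM in HaCaT and 871 ± 149 CPM in TIGK at 24 h.

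None of the nuclear proteins IFI16, SP100 and SP110 was called in HaCaT at 24 h (15.5% of all genes rose and 15.9% fell). In TIGK all 3 rose (15.3% of all genes). IFI16, a sensor of nuclear DNA (chr 1, 158999968 to 159055155), had 104, 91.7 and 116 CPM at 0 h, 102, 111 and 106 at 6 h and 102, 92.3 and 101 at 24 h in HaCaT. In TIGK, IFI16 had 65.5, 53 and 55.6 CPM at 0 h, 45.7, 48.9 and 39.5 at 6 h and 161, 158 and 169 at 24 h. HaCaT was above TIGK in every library at 0 h and 6 h and below at 24 h, 1.8-fold higher at 0 h (adjusted p = 3.2e-08) and 1.65-fold lower at 24 h (adjusted p = 3.6e-07). Its rise in TIGK at 24 h was 2.8-fold (adjusted p = 2.7e-11).

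SP100, a component of nuclear bodies (chr 2, 230415942 to 230544090), had 32.3, 34.2 and 32.8 CPM at 0 h, 31.9, 35.4 and 40.1 at 6 h and 27.8, 32.7 and 29.2 at 24 h in HaCaT. SP100 in TIGK had 47, 38.2 and 36.9 CPM at 0 h, 40.1, 40.5 and 33.5 at 6 h and 142, 146 and 161 at 24 h. Its TIGK rise at 24 h was 3.68-fold (adjusted p = 2.9e-12) and its difference in response -2.02 ± 0.15 log2 units (SE; adjusted p = 1.6e-09). At 0 h it was 1.23-fold lower in HaCaT (adjusted p = 0.018), which was not called when 1 library was left out, HaCaT 0 h A or C or TIGK 0 h A (adjusted p = 0.051 to 0.15). SP110 (chr 2, 230167293 to 230225729), of the same protein family, had 6.54, 7.0 and 8.61 CPM at 0 h, 7.69, 8.98 and 7.12 at 6 h and 5.15, 7.16 and 5.87 at 24 h in HaCaT. TIGK SP110 levels were 24.8, 22 and 21.2 CPM at 0 h, 26.4, 21.4 and 15.3 at 6 h and 97.9, 88.6 and 98.9 at 24 h. It was 3.06-fold lower in HaCaT at 0 h (adjusted p = 4.6e-09) and 15.7-fold lower at 24 h (adjusted p = 3.9e-16).

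The PARP proteins attach ADP-ribose to other proteins, and DTX3L is a ubiquitin ligase that pairs with PARP9. All 5 genes were lower in HaCaT at all 3 times (24.3% of all genes). The 5 also rose in TIGK at 24 h (15.3% of all genes) and had a called negative difference in response (6.45% of all genes). In HaCaT at 24 h they went different ways: PARP10 and PARP14 rose, PARP12 fell, and PARP9 and DTX3L were not called. PARP14 (chr 3, 122680618 to 122730840) had 15.1, 13.2 and 14.2 CPM at 0 h, 14, 15 and 17 at 6 h and 24, 27.1 and 25.6 at 24 h in HaCaT. In TIGK, PARP14 had 84.9, 67.8 and 64 CPM at 0 h, 68.1, 68.9 and 52.6 at 6 h and 305, 252 and 242 at 24 h. Its rise was 1.8-fold in HaCaT (adjusted p = 1.7e-05) and 3.69-fold in TIGK (adjusted p = 1e-11), and neither line overlapped between 0 h and 24 h.

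PARP12 (chr 7, 140023744 to 140063721) had 28.3, 26.9 and 29.3 CPM at 0 h, 28.3, 30.6 and 32.5 at 6 h and 13.6, 12.5 and 18 at 24 h in HaCaT. PARP12 in TIGK had 87.8, 79.7 and 64.1 CPM at 0 h, 81.8, 85.4 and 63.7 at 6 h and 147, 144 and 148 at 24 h. It fell 1.92-fold in HaCaT (adjusted p = 6.7e-06) and rose 1.9-fold in TIGK (adjusted p = 1.2e-06), and in both lines the 24 h libraries were apart from those of 0 h. PARP10 (chr 8, 143977153 to 144012772) had 13.8, 13.1 and 12.2 CPM at 0 h, 13.1, 10.7 and 13 at 6 h and 22.2, 21.1 and 23.4 at 24 h in HaCaT. TIGK PARP10 levels were 66.6, 76.8 and 72 CPM at 0 h, 51.2, 50.1 and 46.2 at 6 h and 188, 170.5 and 229 at 24 h. It was 1.46-fold lower at 6 h than at 0 h in TIGK (adjusted p = 0.0013) and 2.73-fold higher at 24 h (adjusted p = 6.4e-11), and rose 1.71-fold in HaCaT at 24 h (adjusted p = 1.1e-05).

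PARP9 (chr 3, 122527924 to 122564577) had 21.5, 18.3 and 18.2 CPM at 0 h, 15.6, 17.3 and 16 at 6 h and 19.1, 18.3 and 20.2 at 24 h in HaCaT. In TIGK, PARP9 had 53.2, 35.1 and 37.6 CPM at 0 h, 39.1, 38.5 and 26.5 at 6 h and 189.9, 171 and 178 at 24 h. The HaCaT libraries of 0 h and 24 h overlapped, and the difference in response was -2.11 ± 0.20 log2 units (SE; adjusted p = 5e-08). DTX3L, which shares 340 annotated bases with PARP9 on the opposite strand, rose 2.99-fold in TIGK (adjusted p = 1.3e-08) and stood at 58.7 ± 7.86 CPM in HaCaT and 248 ± 35.4 CPM in TIGK at 24 h. It was lower in HaCaT at 0 h (adjusted p = 0.0076) and at 6 h (adjusted p = 0.017), and neither call held throughout: that of 0 h was lost without TIGK 0 h A (adjusted p = 0.054) and that of 6 h when 1 library was left out, TIGK 6 h A or B (adjusted p = 0.051 to 0.22).

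The TRIM proteins, most of them ubiquitin ligases, include TRIM5, which recognises retroviral capsids, TRIM25, which modifies the RNA sensor RIG-I, and TRIM21, an antibody receptor in the cytosol. All 5 rose in TIGK at 24 h (15.3% of all genes), and all 5 had a called negative difference in response (6.45% of all genes). TRIM22 (chr 11, 5689689 to 5737089) had 2.95, 4.15 and 2.62 CPM at 0 h, 2.92, 2.38 and 2.37 at 6 h and 5.66, 6.07 and 6.33 at 24 h in HaCaT. TRIM22 in TIGK had 13, 9.29 and 7.56 CPM at 0 h, 6.99, 7.33 and 5.51 at 6 h and 61.1, 52.2 and 63 at 24 h. It rose 1.85-fold in HaCaT (adjusted p = 0.0018) and 5.96-fold in TIGK (adjusted p = 4.2e-11), with no overlap between 0 h and 24 h in either line.

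TRIM5 (chr 11, 5663557 to 5938619) had 19.1, 23 and 20.0 CPM at 0 h, 18.5, 19.7 and 18 at 6 h and 30.4, 29.7 and 27.5 at 24 h in HaCaT. TIGK TRIM5 levels were 21.8, 19.8 and 21.4 CPM at 0 h, 18.4, 20.1 and 17.6 at 6 h and 71.6, 60.3 and 57.6 at 24 h. The lines overlapped at 0 h and 6 h, and TRIM5 rose 1.41-fold in HaCaT (adjusted p = 0.00084) and 3.0-fold in TIGK (adjusted p = 3.8e-11) at 24 h. The annotated span of TRIM22 overlaps that of TRIM5 by 47401 bases on the opposite strand, and it is not stated whether the counting used strand.

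TRIM14 (chr 9, 98069275 to 98119212), an adaptor of antiviral signalling at mitochondria, had 118, 114 and 111 CPM at 0 h, 112, 123 and 116 at 6 h and 78, 83.9 and 83.7 at 24 h in HaCaT. In TIGK, TRIM14 had 84.9, 80.1 and 79.4 CPM at 0 h, 88, 85.1 and 68 at 6 h and 159, 148 and 129 at 24 h. It was 1.4-fold higher in HaCaT at 0 h (adjusted p = 3.6e-05) and 1.77-fold lower at 24 h (adjusted p = 1.7e-08). At 24 h against 0 h it showed a fall of 1.4-fold in HaCaT (adjusted p = 0.00016) and a rise of 1.78-fold in TIGK (adjusted p = 9.5e-08). TRIM25 (chr 17, 56836387 to 56914080) had 156, 135 and 159 CPM at 0 h, 145, 148 and 149 at 6 h and 102, 92.7 and 95.8 at 24 h in HaCaT. TRIM25 in TIGK had 216, 190.4 and 191 CPM at 0 h, 186, 196 and 169 at 6 h and 283, 249 and 213 at 24 h. It fell 1.55-fold in HaCaT at 24 h (adjusted p = 9.1e-06), and its rise in TIGK (1.25-fold; adjusted p = 0.0082), where 1 library of 24 h lay within the range of 0 h, was not called without TIGK 24 h A (adjusted p = 0.083). TRIM21 rose 2.34-fold in TIGK (adjusted p = 1.8e-08) and its HaCaT change was -0.22 ± 0.13 log2 units (SE; adjusted p = 0.2).

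The chemokines CXCL10 and CXCL11, ligands of CXCR3 that attract T cells, were near the limit of detection. CXCL10 (chr 4, 76021117 to 76023497) had 0, 0 and 0 counts in the HaCaT libraries at 0 h, 0, 0 and 1 at 6 h and 6, 5 and 2 at 24 h, or 0.381, 0.341 and 0.13 CPM at 24 h. TIGK CXCL10 levels were 0.737, 2.02 and 0.832 CPM at 0 h, 0.732, 1.19 and 0.819 at 6 h and 3.34, 3.85 and 2.87 at 24 h. Against a floor of 3 counts per library, CXCL10 was at least 6.35-fold lower in HaCaT at 0 h (adjusted p = 3.6e-06). CXCL10 passed the filter on low counts only through TIGK, so this direction was favoured in advance. In HaCaT it was at least 1.51-fold higher at 24 h than at 0 h (adjusted p = 0.0039). The rise in TIGK was 2.82-fold (adjusted p = 0.02) and was not called when 1 library was left out, TIGK 0 h A or C or TIGK 24 h A or B (adjusted p = 0.05 to 0.098). CXCL11 had 2, 0 and 0 counts in HaCaT at 0 h, 0, 0 and 0 at 6 h and 0, 1 and 6 at 24 h, and 2, 0 and 4 in TIGK at 0 h, 0, 3 and 5 at 6 h and 16, 9 and 19 at 24 h, where it reached 1.05, 0.588 and 1.3 CPM.

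LGALS3BP, a secreted galectin-binding glycoprotein (chr 17, 78971238 to 78980109), had 179, 171 and 183 CPM at 0 h, 172, 171 and 159 at 6 h and 166, 168 and 181 at 24 h in HaCaT. In TIGK, LGALS3BP had 413, 398 and 332 CPM at 0 h, 391, 411 and 297 at 6 h and 887, 811 and 942 at 24 h. The HaCaT libraries overlapped between times, and TIGK rose 2.31-fold at 24 h (adjusted p = 1.3e-09). The difference in response was -1.26 ± 0.14 log2 units (SE; adjusted p = 6.4e-07). LGALS9, or galectin-9, rose 3.81-fold in TIGK (adjusted p = 1.6e-07), and stood at 1.27 ± 0.0585 CPM in HaCaT and 18.7 ± 3.69 CPM in TIGK at 24 h.

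Among the other effectors, APOL6 and LAP3 show the range in HaCaT. APOL6, an apolipoprotein L linked to cell death (chr 22, 35648395 to 35668409), had 6.15, 3.65 and 6.18 CPM at 0 h, 7.3, 6.6 and 7.0 at 6 h and 13.2, 13.2 and 14 at 24 h in HaCaT. APOL6 in TIGK had 19.9, 18.9 and 21.7 CPM at 0 h, 21.6, 19.5 and 14.4 at 6 h and 69.1, 52.8 and 50.5 at 24 h. It rose in each line, 2.53-fold in HaCaT (adjusted p = 2.9e-06) and 2.84-fold in TIGK (adjusted p = 4.7e-08). The difference was -0.17 ± 0.24 log2 units (SE; adjusted p = 0.71). LAP3, a leucine aminopeptidase (chr 4, 17577192 to 17607972), had 28.1, 28.5 and 29.6 CPM at 0 h, 30.0, 33.1 and 33 at 6 h and 22.9, 22.6 and 25.8 at 24 h in HaCaT. TIGK LAP3 levels were 153, 156 and 148 CPM at 0 h, 139, 155 and 146 at 6 h and 208, 206 and 243 at 24 h. It was 9.19-fold lower in HaCaT at 24 h (adjusted p = 1.3e-19), rose 1.44-fold in TIGK (adjusted p = 9e-06) and fell 1.21-fold in HaCaT (adjusted p = 0.019), a fall not called when 1 library was left out, HaCaT 0 h C or HaCaT 24 h A or B (adjusted p = 0.059 to 0.08).

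LAMP3, a lysosomal membrane protein (chr 3, 183122213 to 183163839), had 0.641, 0.371 and 0.437 CPM at 0 h, 0.953, 0.794 and 0.792 at 6 h and 0.826, 0.546 and 0.522 at 24 h in HaCaT. In TIGK, LAMP3 had 17.6, 12.3 and 12.5 CPM at 0 h, 15.2, 18.3 and 10.9 at 6 h and 96.9, 78 and 84.3 at 24 h. It rose 6.14-fold in TIGK at 24 h (adjusted p = 1.2e-11) and was 135-fold lower in HaCaT at that time (adjusted p = 5.5e-18). PLSCR1, a phospholipid scramblase with antiviral activity (chr 3, 146515180 to 146544864), had 25.7, 28.5 and 23.2 CPM at 0 h, 25.4, 25.9 and 26 at 6 h and 30.2, 28.2 and 29.9 at 24 h in HaCaT. PLSCR1 in TIGK had 57.9, 48.7 and 44 CPM at 0 h, 47.8, 45.2 and 35.1 at 6 h and 155, 149.8 and 175 at 24 h. Its rise in TIGK was 3.19-fold (adjusted p = 3.5e-11) and its HaCaT change 0.19 ± 0.12 log2 units (SE; adjusted p = 0.23).

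EPSTI1, first found in breast epithelium in contact with stroma, stood at 4.64 ± 0.683 CPM in HaCaT and 32.9 ± 1.46 CPM in TIGK at 0 h. It rose 3.48-fold in TIGK at 24 h (adjusted p = 1.5e-10) after being 1.52-fold lower at 6 h (adjusted p = 0.0074). The difference at 6 h was not called without TIGK 0 h C and TIGK 6 h C (adjusted p = 0.066) or by limma (adjusted p = 0.077). XAF1, a binder of the apoptosis inhibitor XIAP, had 0.192, 0.0619 and 0.187 CPM at 0 h, 0.699, 0.122 and 0.183 at 6 h and 0.635, 1.09 and 0.261 at 24 h in HaCaT. TIGK XAF1 levels were 2.95, 1.33 and 2.08 CPM at 0 h, 1.73, 1.69 and 1.15 at 6 h and 14.5, 9.27 and 8.68 at 24 h. It rose 4.32-fold in HaCaT (adjusted p = 0.023) and 5.12-fold in TIGK (adjusted p = 2.8e-05) at 24 h, and the HaCaT call was lost when 1 library was left out, HaCaT 0 h B or HaCaT 24 h B (adjusted p = 0.096 to 0.15). RTP4, a chaperone of receptors, had 0, 0 and 0 counts in HaCaT at 0 h, 5, 9 and 2 at 6 h and 9, 1 and 3 at 24 h, and 0, 9 and 3 in TIGK at 0 h, 0, 0 and 0 at 6 h and 46, 25 and 21 at 24 h. RTP4 passed the filter on low counts only through TIGK at 24 h. Its calls against that group, included in the counts above, were thus favoured in advance and are no separate support. Against the floor it was at least 1.79-fold higher in HaCaT at 6 h (adjusted p = 0.0086) and at least 1.48-fold higher at 24 h than at 0 h in HaCaT (adjusted p = 0.028), a rise not called when 1 library was left out, HaCaT 0 h A, B or C or HaCaT 24 h A (adjusted p = 0.068 to 0.14). At 0 h it was at least 1.12-fold lower in HaCaT (adjusted p = 0.026), which was not called when 1 library was left out, HaCaT 0 h A, B or C or TIGK 0 h B (adjusted p = 0.058 to 0.15).

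Other genes of the interferon pathway, from lists by role, were counted in the same way. At 24 h over 0 h in TIGK, 8 of 8 IFIT and OAS genes, 6 of 6 ISG15 system genes, 9 of 17 interferon receptor and signalling genes, 4 of 6 nucleic acid sensors and 12 of 13 MHC class I presentation genes were higher, against 15.3% of all genes. In TIGK 1 signalling gene was lower (17% of all genes). In HaCaT the genes that were higher at 24 h were 1 of 8 IFIT and OAS genes, 0 of 6 ISG15 system genes, 6 of 17 receptor and signalling genes, 3 of 6 sensors and 3 of 13 MHC class I genes, against 15.5% of all genes, and 1 MHC class I gene was lower (15.9% of all genes). The HaCaT counts of the IFIT and OAS and the ISG15 system genes are near or under that share. STAT2 rose in both lines at 24 h, 1.67-fold in HaCaT (adjusted p = 2.4e-05) and 3.54-fold in TIGK (adjusted p = 9.3e-12), and so did IRF7, 1.51-fold in HaCaT (adjusted p = 0.0053) and 4.07-fold in TIGK (adjusted p = 1.8e-10). IRF9 rose 1.69-fold in TIGK (adjusted p = 0.042), which was not called when 1 library was left out, TIGK 0 h A or B or TIGK 24 h A or C (adjusted p = 0.073 to 0.16).

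Of 7 interferon genes, IFNE and IFNL1 passed the filter on low counts. IFNE, an epithelial type I interferon, averaged 1.55 ± 0.291 CPM in HaCaT at 0 h, 1.28 ± 0.548 at 6 h and 1.23 ± 0.751 at 24 h, and in TIGK 1.5 ± 0.416 at 0 h, 2.27 ± 0.363 at 6 h and 0.769 ± 0.474 at 24 h (SD, n = 3 each). It was not called between the lines at any time, or at 24 h in either line (adjusted p = 0.65 in HaCaT and adjusted p = 0.12 in TIGK). IFNL1 had 0 counts in all HaCaT libraries, and in TIGK 4 over the 3 libraries at 0 h, 0 at 6 h and 47 at 24 h, when it was higher than at 0 h in TIGK (adjusted p = 0.0051). With so few counts elsewhere, IFNL1 passed the filter only through TIGK at 24 h. The filter thus favoured this direction in advance, and the call is no separate support for the rise. IFNB1 had 0 counts in HaCaT and, in TIGK, 0 at 0 h, 2 at 6 h and 12 at 24 h, and IFNG had 0 in every library. IFNK had 8, 15 and 1 counts over the HaCaT libraries at 0 h, 6 h and 24 h, and 2, 1 and 1 over those of TIGK. IFNL1 and the closely related IFNL2 and IFNL3 can share reads, and their counts are uncertain to that extent.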

How the data were processed

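The authors deposited whole-number read counts per gene and FPKM for 18 libraries; dividing each count by its gene's length and a library constant returns the FPKM (largest relative deviation 6.5e-09), as tested on the deposited files. The submitters' processing notes name hg38 and the tools featureCounts 1.5.0-p3, HISAT2 2.0.5 and StringTie 1.3.3b; the use of strand and the step each tool served are not given in the sources used here. The labels number replicates and the files letter them, so libraries are named by letter. Nothing says that the replicates were separate cultures, and p-values therefore reflect library-to-library spread that could be technical.

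The test on counts was that of edgeR 4.0.16, run in R 4.3.3 (filterByExpr, TMM scaling, quasi-likelihood fit of 6 group means to 18 libraries, 12 residual degrees of freedom; two-sided, Benjamini-Hochberg over 17409 genes, called under 0.05). CPM are scaled to the TMM-adjusted library size. SEs are approximate, as |log2 fold change| over the root of edgeR's F. Where a group had no count, a fold is a bound against a floor of 3 counts per library, which covers counting error only; with 1 to 3 counts no fold is given. Sequences came from RefSeq (GRCh38.p14). The genes and all lists were chosen with earlier results of these data known. Values of every library were given, within each role, for the called gene with the lowest adjusted p in HaCaT over TIGK at 0 h, in either line at 24 h and in the line difference at 24 h, for genes called against the majority and for genes under the filter; other genes with values were chosen after these were seen. Alternatives were size factors by median of ratios, no filter, DESeq2 1.42.0, limma 3.58.1 on log2(FPKM + 0.1), fits of the compared groups alone, a replicate block and each library left out. The authors' deposited tables of comparisons were not used. The values of 1 signalling gene are not reported here.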

Additional observations from a re-analysis of the deposited data

Results flagged for a closer look

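The change after 0 h, in which the scratch and the time in culture cannot be told apart, differed between the lines for the genes below, by edgeR's test of the difference itself (log2 change in HaCaT minus log2 change in TIGK, adjusted over all genes tested; 3 libraries in each of the 4 groups). All differences at 24 h were negative. Among the GTPases, the difference at 24 h over 0 h was -1.50 for MX1 and -0.54 for GBP3. Among the membrane proteins, the difference at 24 h over 0 h was -3.10 for IFITM1 and -2.07 for IFITM3. Among the IFI genes and NMI, the difference at 24 h over 0 h was -2.62 for IFI6, -1.47 for IFI27, -1.75 for IFI35, -0.83 for NMI and -2.34 for IFI44. In the group of CMPK2 and the SAMD9 genes, the difference at 24 h over 0 h was -2.37 for CMPK2, -1.80 for SAMD9 and -1.18 for SAMD9L. For the RNA-binding proteins and helicases, the difference at 24 h over 0 h was -1.22 for EIF2AK2, -0.71 for ADAR, -2.14 for DDX60, -2.93 for DDX60L, -0.89 for ZC3HAV1, -1.23 for PNPT1 and -0.99 for HELZ2. For the nuclear proteins, the difference at 24 h over 0 h was -1.56 for IFI16, -2.02 for SP100 and -2.36 for SP110. For the PARP genes and DTX3L, the difference at 24 h over 0 h was -2.11 for PARP9, -0.68 for PARP10, -1.86 for PARP12, -1.03 for PARP14 and -1.60 for DTX3L. For the TRIM genes, the difference at 24 h over 0 h was -1.09 for TRIM5, -1.32 for TRIM14, -1.45 for TRIM21, -1.68 for TRIM22 and -0.95 for TRIM25. For galectin-9 and the galectin-binding glycoprotein, the difference at 24 h over 0 h was -1.71 for LGALS9 and -1.26 for LGALS3BP. For the other effectors, the difference at 24 h over 0 h was -1.60 for EPSTI1, -1.48 for PLSCR1, -2.23 for LAMP3 and -0.79 for LAP3. Of the signalling genes, the difference at 24 h over 0 h was -1.09 for STAT2 and -1.43 for IRF7. At 6 h over 0 h the difference was positive for DDX60, at 0.87, which was not called in 5 of the fits that left out 1 library.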

How the results depend on the processing

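Over 25 alternatives, 270 called values of 53 genes gave 6745 recomputed values, of which 6606 kept direction and call, 139 kept direction and lost the call, and 0 reversed. Counts of called genes stayed within 1.5 times under each alternative except in these cases. The 7 genes lower in TIGK at 6 h were 12 with no filter on low counts, 3 when the compared groups alone were fitted, 2 with limma on log2 FPKM, and 3 to 10 with 1 library left out. The 1 gene with a positive line difference at 6 h became 5 with no filter, 3 with DESeq2, 0 with limma, 2 without TIGK 0 h C and TIGK 6 h C (an alternative chosen after seeing the data), and 0 to 2 with 1 library left out. The 2 genes higher in HaCaT than in TIGK at 24 h were 1 to 2 with 1 library left out. The causes were not tested. The letters did not pair the libraries, apart from letter C between 0 h and 6 h in TIGK. Same-letter deviations correlated at -0.02 to 0.02 in HaCaT and, for pairs of times with 24 h, at 0 to 0.03 in TIGK. Between 0 h and 6 h in TIGK they correlated at 0.11 for A, 0.09 for B and 0.39 for C. There, C with A or B correlated at -0.2 to -0.18, and A with B at 0.09. With a replicate block by letter, the genes lower in TIGK at 6 h were 8 and those with a negative line difference at 24 h were 37, and 1 of the 270 calls was lost, that of IFI27 in the line difference at 24 h (adjusted p = 0.056).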
